A study of Mus musculus with 60 samples.

Results

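Whole blood RNA from 6 mice given 200 mg/kg BIO 300 was compared with that of 6 vehicle mice on Day 1, which was 48 h after the last dose. The 12 libraries (animals 25 to 30 for vehicle, animals 43 to 48 for 200 mg/kg) were chosen by their labels from 60 in the series. All were young male CD2F1 mice, a first-generation cross, none of the 12 was irradiated, and both groups received repeated oral gavage over several days. BIO 300 Oral Powder is a solid dispersion of synthetic genistein, and the vehicle mice received the dosing liquid without it. Each mouse was bled once, at the end, so the days and doses are different animals. Several mice shared a cage, but the labels do not say which, so the effect of a cage and that of the dose cannot be told apart. The 6 mice given 50 mg/kg and the 6 given 100 mg/kg on Day 1, and the 6 vehicle and 6 high-dose mice of Day 0, bled 24 h after dosing ended, serve for comparison, 24 mice in all. Whole blood is a mixture, and the files hold no cell counts. The labels name poly(A) selection and the study's methods name ribosomal and globin depletion of total RNA, so the kind of library is uncertain, which bears on every noncoding, histone and globin value below.

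Genistein is a soy isoflavone that binds oestrogen receptors with a preference for the beta form, and at higher levels it also inhibits tyrosine kinases. Whole blood holds RNA of several sources: reticulocytes, which are young red cells without a nucleus but rich in haemoglobin message, platelets, which carry RNA from their parent megakaryocytes, and nucleated leukocytes. A library is a fixed number of reads shared among these sources, so a gene can gain reads because others lost them. For that reason the counts for each list are given with 2 scalings. TMM (trimmed mean of M-values) assumes that most genes do not differ, and total-count scaling assumes that the RNA sampled from each mouse was equal in amount. A gene counts as a DEG (differentially expressed gene) where the Benjamini-Hochberg adjusted p of edgeR is below 0.05 and its level changed more than 2-fold, that is by over 1 in log2. CPM are counts scaled to one library total, the usual unit, with TMM unless stated otherwise, and ± is the standard error (SE) of a log2 fold change.

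The libraries held 18332440 to 38337851 gene counts in the treated mice and 22605827 to 32949547 in the vehicle mice. Between 17162 and 19361 genes had a count in the treated mice, against 24167 to 25243 in the vehicle mice, and at a common 18332440 counts the ranges were 16754 to 18759 and 22938 to 24487. The 100 genes with most counts took 64.4% to 70.9% of a treated library and 47.9% to 57.1% of a vehicle library. TMM factors lay between 1.39 and 1.96 in the vehicle mice and between 0.48 and 0.75 in the treated mice, with no overlap. Animal 30 among the vehicle mice and animal 46 among the treated mice were farthest from the rest of their groups, with a chi-square per gene of 69.8 to 188 and 156 to 237 against the others, and no pair of libraries came near sampling noise (smallest value 13.3).

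With TMM, 4073 of 23513 genes tested were higher at 200 mg/kg (17.3%) and 7168 were lower (30.5%). With total counts, 712 were higher (3.03%) and 15405 were lower (65.5%). The median log2 fold change of all genes was -0.48 with TMM and -1.96 with total counts, a shift of -1.47. All 712 genes higher with total counts were also higher with TMM, and all 7168 genes lower with TMM were also lower with total counts. These 7880 calls were thus the same with both scalings. Such nesting follows largely from the downward shift, so for the lower calls the second scaling is no separate support. Another 3361 genes were higher with TMM only. The shares of all genes given here (17.3% and 30.5% with TMM, 3.03% and 65.5% with total counts) are the background for every list count below. In whole blood, fewer cells of a type and less RNA per cell cannot be told apart, and this holds for every list below.

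Some of the largest rises were at short loci whose sequence is not unique, and these are shown because it limits what their counts mean. Gm24245 had the largest increase among the predicted genes that were DEGs with both scalings, reached a mean of 10 CPM and did not overlap. It is annotated as a miRNA gene at chr4:139338304-139338360 on the plus strand of GRCm38 (GENCODE M21). Its 57 bases are the same as those of Gm24270 at chr9:56223715-56223771 (minus strand) and Gm23935 at chr16:11144125-11144181 (plus strand). Gm24187 at chr13:9834469-9834525 (minus strand) differs from them by G11A, counted from 1 at the 5′ end, and this base is the capital letter. Gm24270, Gm23935 and Gm24187 were added after their values were seen. Reads that lie wholly inside the shared stretch cannot be placed at one of them, and none of the 4 is read here as a miRNA.
Gm24245: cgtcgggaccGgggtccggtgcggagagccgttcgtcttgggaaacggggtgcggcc
Gm24187: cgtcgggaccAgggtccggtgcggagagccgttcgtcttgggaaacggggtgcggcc
Gm25732: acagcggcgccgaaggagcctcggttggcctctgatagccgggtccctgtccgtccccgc
Gm25732, of 60 bases at chr4:139338206-139338265 on the plus strand, lies 38 bases before Gm24245 and is shown because both are counted from the same small region.

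Gm24245 had 1.25 to 1.77 CPM (median 1.59) in the vehicle mice and 15.1 to 36.0 CPM (median 23.7) in the treated mice. The log2 fold change was 3.96 ± 0.20 with TMM (adjusted p = 1.8e-08) and 2.45 ± 0.24 with total counts (adjusted p = 6.7e-07). Gm25732 had 5.25 to 11.5 CPM (median 7.43) and 73.1 to 189 CPM (median 88.9) in the same groups, a difference of 3.67 (TMM). Gm24245 and Gm25732 were both picked by the naming rule, which requires a DEG call with both scalings and no overlap. Their calls and the gap between their groups are thus no separate result. Gm23935, Gm24187 and Gm24270 rose by 3.17, 3.05 and 2.98 on the log2 scale with TMM, and each was also a DEG with total counts. Mir6236, a miRNA gene known to overlap large-subunit ribosomal RNA sequence, rose by 3.29, from 228 to 453 CPM (median 314) in vehicle mice to 2182 to 5757 CPM (median 2739) in treated mice.

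The loci of a ribosomal RNA repeat on chromosome 17 moved apart. Gm26917 (chr17:39843013-39846341, plus strand) lies in the transcribed spacer of a pre-ribosomal RNA copy, a part that is removed in the nucleolus, and Gm42418 (chr17:39846958-39848788, plus strand) lies in the small-subunit ribosomal RNA that follows it. Gm26917 had 38361 to 44816 CPM (median 43083) in the vehicle mice and 1170.0 to 19562 CPM (median 3029) in the treated mice. It was lower by 7.13-fold with TMM (log2 fold change -2.83 ± 0.61, adjusted p = 1.0e-03), and animal 43 was the treated mouse nearest to the vehicle mice. Gm42418 had 12422 to 17382 CPM (median 13558) and 51339 to 177724 CPM (median 71638), with the top value in animal 46, and its log2 fold change was 2.61 ± 0.46 with TMM and 1.07 with total counts. As shares of the library, Gm26917 took 5.32% to 8.77% in the vehicle mice and 0.0562% to 1.46% in the treated mice, and Gm42418 took 1.73% to 3.18% and 3.19% to 11.0%. Neither pair of ranges overlapped.

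Platelet genes rose together, and they were the list with the largest median. All 23 members tested were DEGs with TMM and 21 of 23 with total counts, the exceptions being Selp and P2ry12. Their median log2 fold change was 3.08 with TMM and 1.52 with total counts, which is 3.56 and 3.48 above the median of all genes. The list took 0.701% to 1.32% of the counts in the vehicle mice (median 0.722%) and 1.78% to 2.87% in the treated mice (median 2.38%), without overlap. Leaving out any 1 of the 12 mice left all 23 as DEGs with TMM.

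Gp1bb encodes the beta subunit of glycoprotein Ib, the platelet receptor for von Willebrand factor. It had 35.8 to 74.6 CPM (median 48.6) in the vehicle mice and 419 to 721 CPM (median 633) in the treated mice, an 11.8-fold difference (log2 fold change 3.57 ± 0.20, adjusted p = 1.8e-08) with TMM and 2.03 ± 0.19 on the log2 scale with total counts. Gp5, a further subunit of that receptor complex, rose by 3.38 from 33.2 to 74.1 CPM (median 46.4) in vehicle mice to 359 to 656 CPM (median 544) in treated mice. Treml1, a receptor stored in platelet alpha granules, rose by 3.46, and the platelet surface gene Ly6g6f by 3.58. These genes were picked by the naming rule, which admits only genes without overlap, so the gap between their groups is no separate result.

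The 3 platelet genes with the highest mean CPM also rose. Ppbp, which encodes the chemokine precursor pro-platelet basic protein, had 894 to 1769 CPM (median 1038) and 6497 to 10939.7 CPM (median 9449.7) in vehicle and treated mice (log2 fold change 2.91 ± 0.26). Nrgn, a calmodulin-binding protein abundant in platelet RNA, rose by 3.08, and Gng11, a G protein gamma subunit, by 2.78. Selp, the adhesion receptor P-selectin, had the smallest change of the list, 2.53 ± 0.27 with TMM and 0.98 with total counts.

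**Figure D1:**
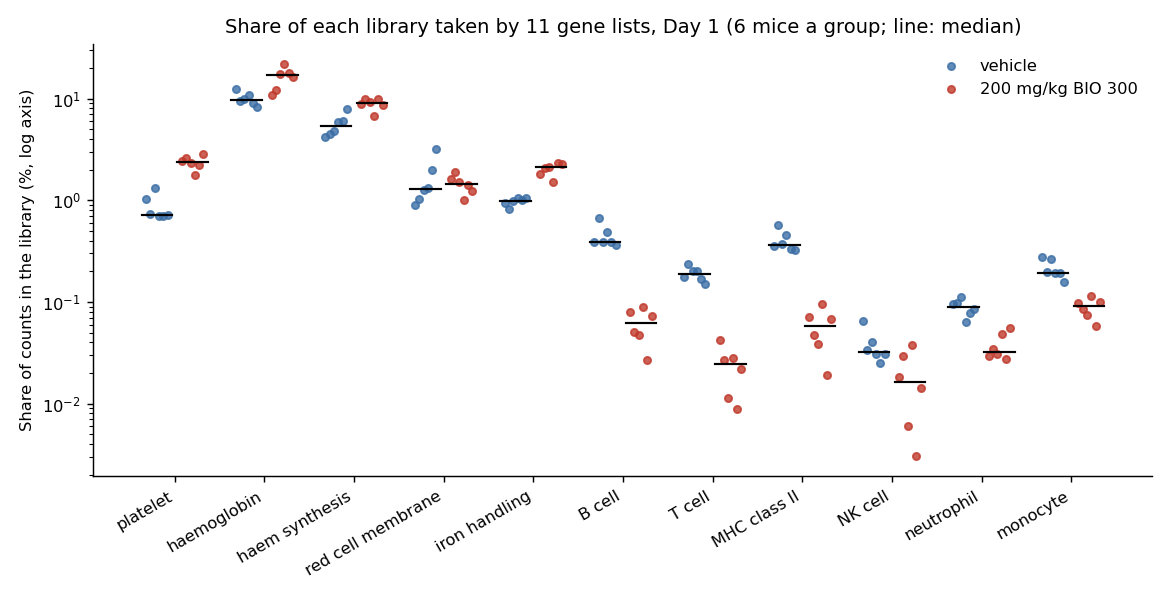
Share of the counts of each library, in percent on a log axis, taken by 11 gene lists in the 6 vehicle mice (blue) and the 6 mice given 200 mg/kg (red) on Day 1, each point a mouse and each line a median. The platelet and iron lists lie higher in every treated mouse and the B cell, T cell, MHC class II, neutrophil and monocyte lists lie lower in every treated mouse, whereas the haemoglobin, haem synthesis, red cell membrane and NK cell lists overlap. Shares follow total counts, with which 65.5% of all genes were lower. From the median of all genes, neutrophil and monocyte medians then lay 0.47 and -0.11, against -1.11, -1.35 and -0.90 for B cell, T cell and MHC class II.

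Red cell genes were higher with TMM, and most of them did not hold their call with total counts. All 10 haemoglobin genes, all 12 haem synthesis genes, all 18 red cell membrane genes and all 19 reticulocyte maturation genes were DEGs with TMM, with medians of 2.41, 1.88, 1.86 and 1.78. With total counts the DEGs were 3, 0, 1 and 0 of these, and the medians were 0.87, 0.34, 0.33 and 0.25. Relative to all genes the medians lay 2.89, 2.36, 2.35 and 2.26 higher with TMM and 2.83, 2.30, 2.29 and 2.21 higher with total counts. The red cell lists thus stood above the bulk of genes. A common shift cancels in this measure, so the likeness of the 2 scalings is no separate support. The share of the red cell membrane list was 0.908% to 3.20% in vehicle mice and 0.998% to 1.92% in treated mice, and the ranges overlapped. Haemoglobin shares were 8.31% to 12.4% and 10.9% to 22.1%.

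Hbb-bs, an adult beta globin gene of the reference strain, had 45985 to 64416 CPM (median 54773) in vehicle mice and 137058 to 351780.0 CPM (median 286203) in treated mice, a log2 fold change of 2.25 ± 0.58 with TMM (adjusted p = 0.0037) and 0.67 ± 0.20 with total counts. Hba-a1, an adult alpha globin, went from 724 to 1353 CPM (median 799) in vehicle mice to 3712 to 17281 CPM (median 6232) in treated mice and was a DEG with both scalings (3.14 and 1.57). Hba-a1 and Hba-a2 are near-identical copies, so their counts are uncertain singly. Animal 46 had the highest Hba-a1 value of the treated mice, and animal 25 the highest of the vehicle mice. Hbb-bt, the other adult beta globin of the reference, had the smallest value of the list, 1.73 with TMM and 0.15 with total counts. The embryonic globin Hbb-bh1 rose by 4.40 with TMM, but its levels were 0 to 0.0821 CPM (median 0.0340) and 0.0617 to 3.07 CPM (median 0.523), with the highest in animal 43 and with overlap of the groups.

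Alas2, the first and rate-limiting enzyme of haem synthesis in red cells, had 16146 to 34455 CPM (median 20949) in the vehicle mice and 84726 to 161463 CPM (median 118238) in the treated mice. Its log2 fold change was 2.41 ± 0.46 with TMM (adjusted p = 4.4e-04) and 0.88 ± 0.17 with total counts, and the groups did not overlap with either. Fech, which inserts iron into protoporphyrin, rose by 1.87 with TMM and differed by 0.36 with total counts. Slc25a37, the mitochondrial iron importer mitoferrin, rose by 1.44 with TMM and had a value of -0.04 with total counts. Uros, whose enzyme closes the porphyrin ring, rose by 1.23 with TMM and had -0.34 with total counts.

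Among membrane genes Aqp1, the water channel aquaporin, rose with both scalings, by 2.71 with TMM and 1.16 with total counts, from 42.7 to 67.9 CPM (median 59.1) in vehicle mice to 282 to 557 CPM (median 363) in treated mice. Slc4a1, the anion exchanger of the red cell, rose by 1.70 with TMM. The skeletal protein Epb41 rose by 1.10 with TMM and had -0.35 with total counts, and its groups overlapped. Epb41 lost its call when any of 7 single mice was left out. Tent5c, Ucp2 and Ube2l6, genes expressed late in red cell maturation, rose by 1.67, 2.18 and 2.32 with TMM and had 0.18, 0.66 and 0.78 with total counts.

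Iron genes were higher in part. Ftl1 and Fth1, the light and heavy chains of the iron store ferritin, rose by 2.84 and 2.46 with TMM, and Ftl1 held its call with total counts (1.29). Ncoa4, the receptor that delivers ferritin for breakdown, rose by 1.94 with TMM. In all 6 of 12 iron genes were higher with TMM (50%, against 17.3% of all genes) and 1 with total counts. With total counts 4 were lower, when 65.5% of all genes were. The list took 0.820% to 1.06% of counts in vehicle mice against 1.52% to 2.35% in treated mice.

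Transcription factors shared by red cell precursors and megakaryocytes divided by scaling. With TMM, 9 of 15 were higher and none lower, and with total counts 4 were higher and 5 lower. The 4 that rose with both scalings were Gata1, Nfe2, Gfi1b and Tal1. Nfe2, a regulator of platelet release, had 36.6 to 64.1 CPM (median 46.6) in vehicle mice and 252 to 359 CPM (median 325) in treated mice (log2 fold change 2.68 ± 0.15), and Tal1 rose by 2.78. Fli1 and Lmo2 rose by 1.24 and 1.37 with TMM and had -0.31 and -0.16 with total counts. Ldb1, a cofactor of Lmo2, had -0.79 with TMM and fell by 2.30 with total counts. Gata2, kept in the basophil and eosinophil list and also expressed in megakaryocytes, rose by 2.46 with TMM.

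Lymphocyte genes fell with both scalings. Of 20 B cell genes, 17 were lower with TMM and 19 with total counts, and of 23 T cell genes, 21 and 22 were lower. Median log2 fold changes were -1.57 and -3.06 for B cells and -1.87 and -3.31 for T cells, in the order TMM and total counts. The B cell list took 0.364% to 0.662% of the counts in vehicle mice and 0.0271% to 0.0889% in treated mice. The T cell list took 0.149% to 0.238% and 0.00884% to 0.0419%, and neither pair of ranges overlapped. With TMM no member of either list rose, and leaving out 1 mouse left 17 or 18 B cell and 20 to 22 T cell genes lower.

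Ighm, the constant region of IgM, had 357 to 632 CPM (median 457) in vehicle mice and 81.1 to 271 CPM (median 179) in treated mice, a log2 fold change of -1.38 ± 0.24 with TMM (adjusted p = 1.7e-04) and -2.86 ± 0.31 with total counts. Ighd, which mature B cells express with IgM, fell by 1.92 with TMM, and the kappa constant region Igkc fell by 1.49. Fcer2a, the low-affinity IgE receptor CD23, had the lowest log2 fold change of the B cell list, -2.03, at 73.4 to 117 CPM (median 84.8) and 9.46 to 39.5 CPM (median 20.8). Ralgps2, a guanine nucleotide exchange factor, was the 1 member on the other side, with 0.86 under TMM and -0.69 under total counts, and it was no DEG with either. Spib and Vpreb3 were the other 2 that did not pass with TMM.

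Cd3e, an invariant chain of the T cell receptor complex, had 78.2 to 92.5 CPM (median 84.1) in vehicle mice and 7.02 to 35.1 CPM (median 24.7) in treated mice (log2 fold change -1.91 ± 0.31 with TMM, adjusted p = 9.0e-05). Cd8a, the co-receptor of cytotoxic T cells, went from 14.1 to 21.4 CPM (median 19.0) in vehicle mice to 0.843 to 8.39 CPM (median 3.23) in treated mice, with -2.29 ± 0.37. The transcription factor gene Tcf7 fell by 1.94 with TMM and the kinase gene Lck by 1.09, and Lck lost its call without animal 45 or animal 47. Lat, the adaptor below the receptor that platelets express too, had 0.62 with TMM and -0.91 with total counts. Zap70 was the other T cell gene that was no DEG with TMM.

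Segments of the antigen receptors were lower too. Of 235 immunoglobulin variable segments tested, 163 were lower with TMM and none higher, with a median of -1.70. Of 95 T cell receptor variable segments, 54 were lower and 2 higher, with a median of -1.92. With total counts 221 and 85 segments were lower and none higher. Segments of a family share sequence, and many held few counts.

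Genes of antigen presentation by MHC class II, which B cells and monocytes express, fell as well. With TMM 11 of 12 were lower, all but Ifi30, and with total counts all 12 were. Cd74, the invariant chain, had 768 to 1204 CPM (median 942) and 161 to 616 CPM (median 379) in vehicle and treated mice (log2 fold change -1.35 ± 0.25), and H2-Aa and H2-Ab1, the chains of one class II molecule, fell by 1.18 and 1.46. The share of the list was 0.326% to 0.565% in vehicle mice and 0.0192% to 0.0961% in treated mice.

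**Figure D2:**
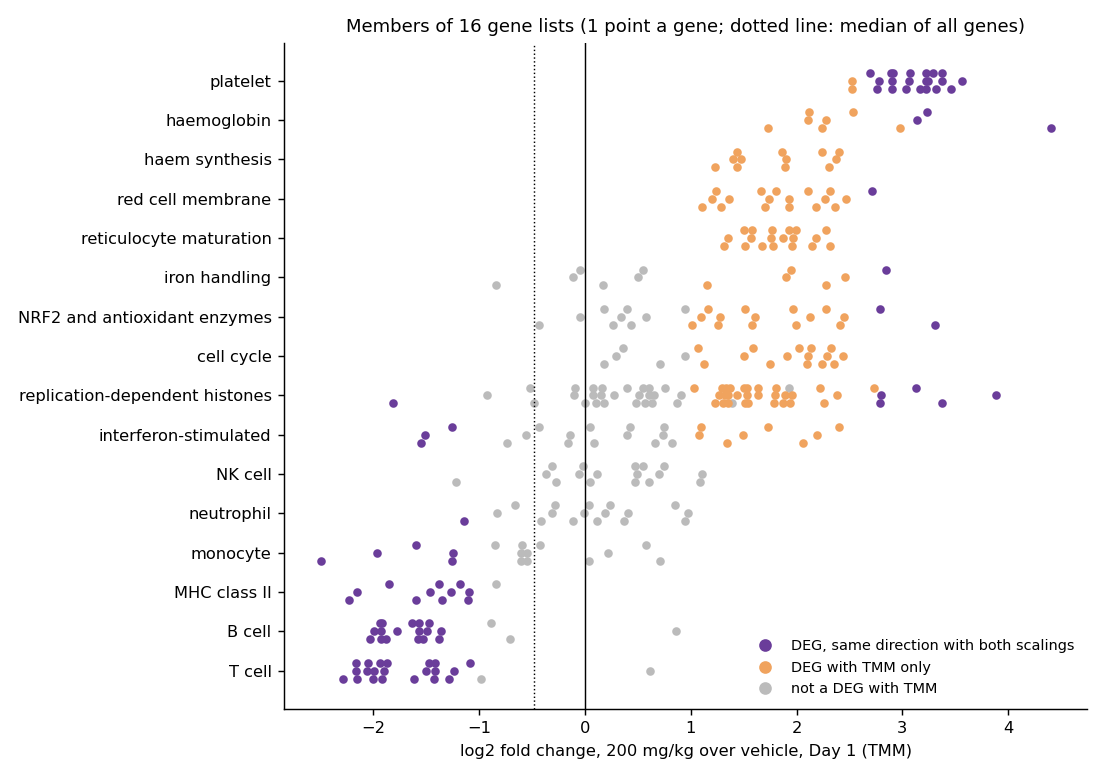
Log2 fold change (TMM, 200 mg/kg over vehicle, Day 1) of each member of 16 gene lists, each point a gene, coloured by whether it was a DEG in the same direction with both scalings, with TMM only, or not with TMM. Nearly all platelet genes rose and nearly all B and T cell genes fell with both scalings, whereas most red cell genes rose with TMM only, and the dotted line marks the median of all genes at -0.48.

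NK cell and neutrophil genes depended on the scaling. None of 17 NK cell genes was a DEG with TMM (median 0.47), and 9 were lower with total counts (median -1.02), when 65.5% of all genes were lower. Gzma, a protease of cytotoxic granules, had 27.5 to 88.5 CPM (median 44.5) in vehicle mice and 12.7 to 182 CPM (median 61.2) in treated mice, a wide spread. Ccl5, a chemokine of cytotoxic cells, had 15.2 to 40.0 CPM (median 22.2) and 10.6 to 107 CPM (median 32.0), and its log2 fold change of 1.10 ± 0.48 did not pass with edgeR and TMM. It passed when animal 25, 43, 45 or 47 was left out, with the filterByExpr filter, with DESeq2 and with the size factors of DESeq2. In treated mice the NK cell list took 0.00303% to 0.0378% of the counts, against 0.0248% to 0.0648% in vehicle mice.

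Of 17 neutrophil genes, 1 (Cd177) was lower with TMM and none higher, and 13 were lower with total counts. Csf3r, the G-CSF receptor, had -0.28 with TMM and fell by 1.79 with total counts. S100a9 and S100a8, the subunits of calprotectin, had 0.94 and 0.97 with TMM and -0.61 and -0.59 with total counts. Both passed without animal 27, 43 or 44, with the filterByExpr filter, with DESeq2 and with its size factors.

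Monocyte genes lower with TMM were 5 of 16 (Vcan, Chil3, Ms4a4c, Spn and Ccr2), which is 31.2% beside 30.5% of all genes, so the share was near the background. None was higher, and 14 were lower with total counts. Ccr2, the chemokine receptor of classical monocytes, had 109 to 205 CPM (median 126) in vehicle mice and 13.8 to 129 CPM (median 56.2) in treated mice (log2 fold change -1.24 ± 0.38), and the mucin gene Spn fell by 1.25. Lyz2, lysozyme, had 584 to 928 CPM (median 686) and 1015 to 1316 CPM (median 1222), which is 0.71 ± 0.16 with TMM and -0.84 ± 0.17 with total counts. With neither scaling did the groups overlap, but the directions were opposite, and Lyz2 was below the fold limit with both. Of 12 basophil and eosinophil genes 1 (Gata2) was higher and 3 (Cpa3, Cd200r3 and Mcpt8) were lower with TMM, against 1 lower without animal 29, and with total counts 10 were lower and none higher. The TMM shares were 8.33% and 25%, both below the 17.3% and 30.5% of all genes.

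Lists of leukocyte receptors held shares of lower DEGs near or above the 30.5% of all genes with TMM, at 35.3% for toll-like receptors and adaptors, 33.3% for chemokine receptors and 43.8% for cytokine receptors. The first 2 shares are not a result about these receptors. For toll-like receptors and adaptors, 6 of 17 were lower with TMM and 1 (Tlr12) higher, and 16 were lower with total counts. Unc93b1, the chaperone that moves toll-like receptors to endosomes, fell by 1.52 with TMM, and Tlr6, which pairs with Tlr2, by 1.61, from 12.2 to 14.6 CPM (median 13.9) in vehicle mice to 2.34 to 6.51 CPM (median 4.65) in treated mice. Among chemokine receptors 6 of 18 were lower and 1 (Xcr1) higher with TMM, and with total counts 16 were lower. Cxcr4 had -0.91 with TMM, under the fold limit, and was called without animal 25 and with total counts. Of 16 cytokine receptors 7 were lower with TMM, including Il6ra (-1.50), and 3 were higher, of which 2 also rose with total counts, and 13 were lower with total counts. Epor, the erythropoietin receptor, was among those 2.

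Interferon-stimulated genes went both ways. With TMM, 8 of 24 were higher and 3 (Mx1, Oas2 and Ddx58) were lower, and with total counts none was higher and 12 were lower. The TMM shares were 33.3% and 12.5%, against 17.3% and 30.5% of all genes, so the share lower was below the background. With total counts 65.5% of all genes were lower. Rsad2, viperin, had 859 to 2786 CPM (median 1414) in vehicle mice and 5157 to 9308 CPM (median 7256) in treated mice, a log2 fold change of 2.20 ± 0.31 with TMM (adjusted p = 3.1e-05) and 0.70 ± 0.21 with total counts. Isg15, a ubiquitin-like modifier, rose by 2.41 with TMM and Ifit2, which binds foreign RNA, by 2.06. Mx1, an antiviral GTPase, had 2.40 to 6.28 CPM (median 3.46) and 0.187 to 2.38 CPM (median 0.953), a fall of 2.93-fold with TMM, without overlap.

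For MHC class I, 1 of 15 genes (B2m) was higher and 4 (Tap1, Tap2, Nlrc5 and Erap1) were lower with TMM, and with total counts none was higher and 13 were lower. The TMM shares were 6.67% and 26.7%, against 17.3% and 30.5% of all genes, so neither exceeded the background. B2m, the light chain of every class I molecule, had 499 to 736 CPM (median 619) in vehicle mice and 1245 to 2195 CPM (median 1963) in treated mice, which is 1.59 ± 0.17 with TMM and 0.03 with total counts. The heavy chains H2-D1 and H2-K1 had 0.09 and 0.12 with TMM and fell by 1.43 and 1.39 with total counts.

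Genes of the translation and energy machinery moved unevenly within their lists. Of 78 cytosolic ribosomal protein genes 17 were higher with TMM (21.8%, against 17.3% of all genes) and none lower, with a median of 0.20. With total counts 1 was higher and 50 were lower, with a median of -1.34. Rpl41, the shortest ribosomal protein, went from 337 to 488 CPM (median 406) in vehicle mice to 1701 to 4373 CPM (median 3115) in treated mice and rose with both scalings, by 2.86 and 1.29. Rplp0, of the ribosomal stalk, rose by 1.99 with TMM. Ribosomal protein genes have many processed copies, so their counts are uncertain. Of 11 mitochondrially encoded genes tested 7 were higher with TMM (63.6%, against 17.3% of all genes) and 3 with total counts, when 3.03% of all genes were. In the vehicle and treated mice mt-Co1, a cytochrome oxidase subunit, had 1013 to 2382 CPM (median 1753) and 5442 to 8835 CPM (median 8254) (log2 fold change 2.21 ± 0.25). For nuclear genes of oxidative phosphorylation 24 of 74 were higher (32.4%) and 1 lower with TMM, against 1 higher and 43 lower with total counts, and Atp5b, of the ATP synthase, rose by 1.92 with TMM. Of 34 proteasome genes 3 were higher with TMM (Psmd4, Psmd11 and Psmb5) and none lower, against none higher and 27 lower with total counts. Psmd4, a ubiquitin receptor of the cap, rose by 1.97 with TMM.

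Genes of dividing cells and histones were higher with TMM. In the cell cycle list 15 of 20 were higher (75%, against 17.3% of all genes) and none lower with TMM. With total counts 0 were higher and 3 lower, when 3.03% and 65.5% of all genes were. Mki67, the marker Ki-67, had 96.7 to 253 CPM (median 146) in vehicle mice and 413 to 902 CPM (median 630.1) in treated mice (2.02 with TMM and 0.49 with total counts). Top2a, the topoisomerase of mitosis, rose by 2.44 with TMM and the replication licensing gene Mcm3 by 2.35, whereas Pcna, the polymerase clamp, had 0.18 with TMM and fell by 1.31 with total counts. Of 62 replication-dependent histone genes tested 34 were higher (54.8%) and 1 (Hist2h2ab) lower (1.61%, against 30.5% of all genes) with TMM, and 5 were higher and 17 lower with total counts. Hist1h2bc rose with both scalings, by 2.80 and 1.24, and Hist1h1c, a linker histone, rose by 2.38 with TMM. Histone genes are close in sequence to each other.

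**Figure D3:**
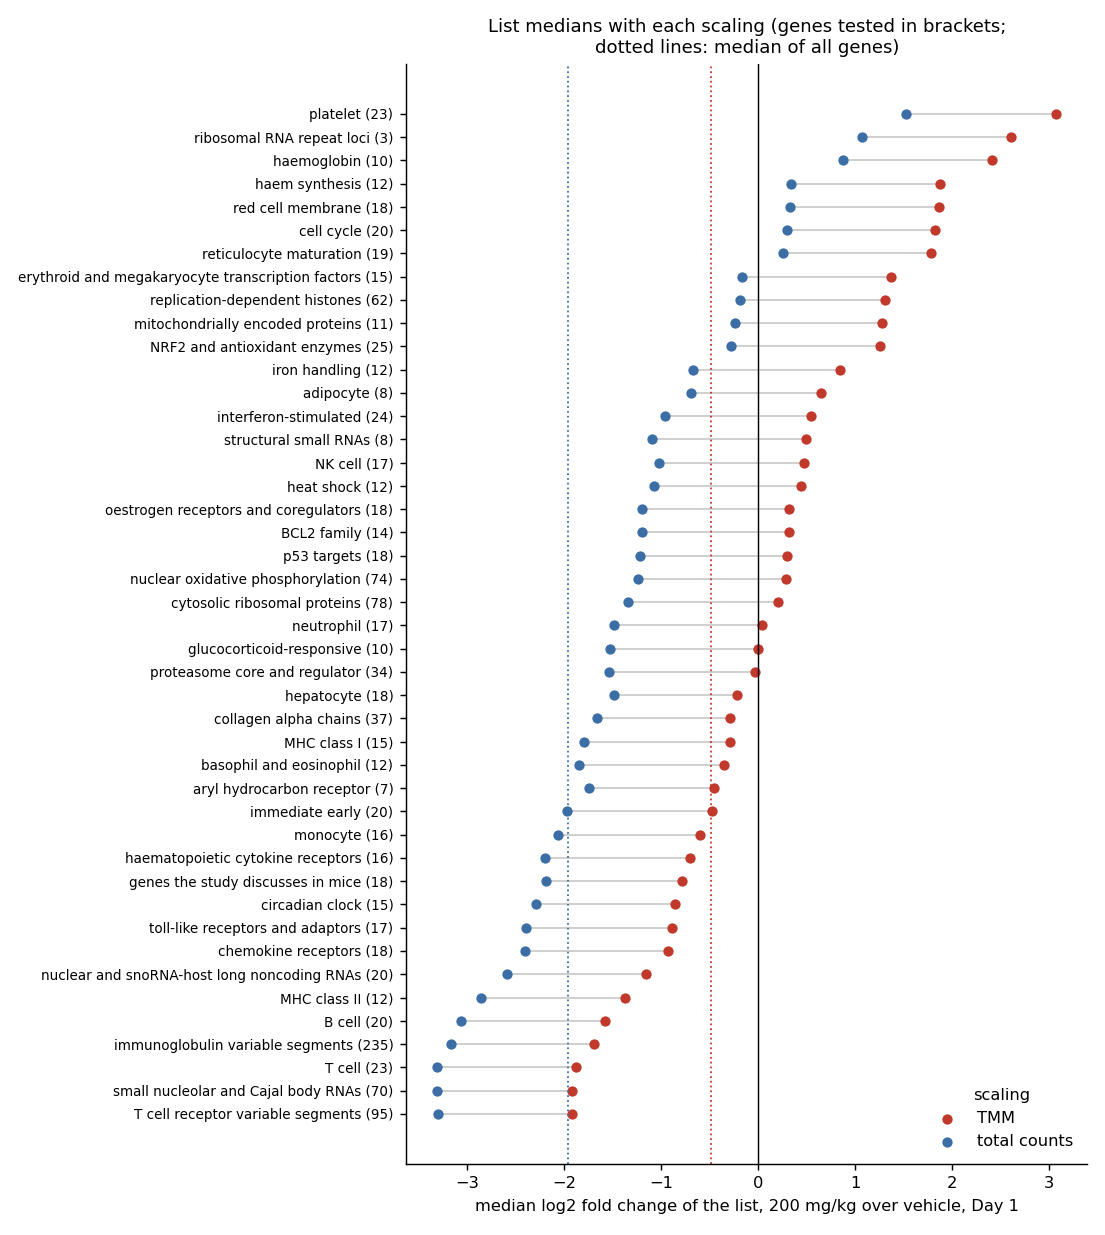
Median log2 fold change (200 mg/kg over vehicle, Day 1) of the 44 gene lists with TMM (red) and total counts (blue), with the number of genes tested in brackets and dotted lines at the medians of all genes, -0.48 and -1.96. The lists run from platelet genes at 3.08 to T cell receptor variable segments at -1.92 with TMM, and with total counts the medians of 37 of the 44 lists lie below 0.

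Over all genes tested, the noncoding classes with at least 50 genes had lower medians than protein-coding genes with both scalings. Genes were tested from 10 counts summed over the 12 mice, so a locus with few counts can enter through the group where it is high. More genes had a count in the vehicle mice. How far the order of these medians rests on that filter was not tested. The median log2 fold change with TMM was -0.18 over 15587 protein-coding genes, -1.25 over 1010 lincRNA genes, -1.83 over 1329 antisense genes and -2.56 over 262 snoRNA genes. It was -2.61 over 1238 genes of the class TEC, single-exon loci whose annotation awaits experimental support, of which 879 (71.0%) were lower and 64 higher. Whether counting used strand is not given in the sources used here, so antisense and intronic genes may include reads of the genes they overlap. Among genes at 1 CPM or more in a group the medians were -0.15 for protein-coding genes and -2.80 for TEC genes. A gene can pass this limit through the group where it is high. These medians therefore cannot show whether the order rests on genes with few counts, and the same limit holds for the other medians in this range. In the same range the medians of miRNA genes and processed pseudogenes were 2.84 and 1.34, over 21 and 217 genes, the reverse in sign of their medians over all genes tested. The same turn was seen for misc_RNA genes, from -2.23 to 1.62 over 15 genes. Unprocessed pseudogenes went from -1.21 to 0.19 and transcribed processed pseudogenes from -0.84 to 0.26, so in this range these 5 classes lay above protein-coding genes.

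**Figure D4:**
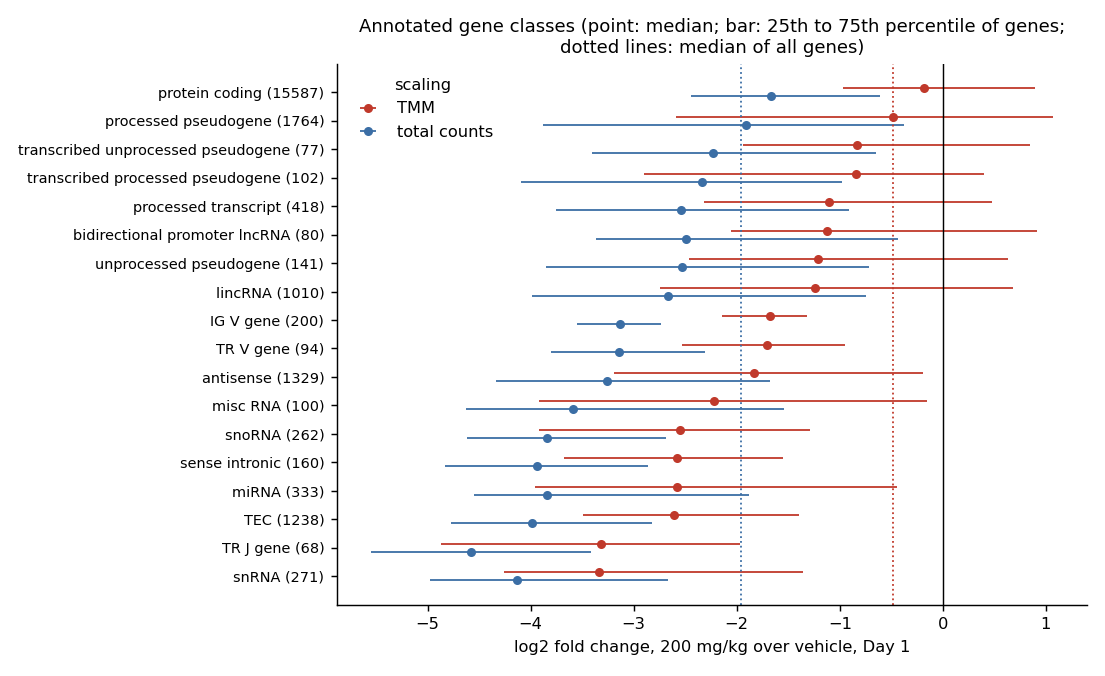
Median (point) and 25th to 75th percentile (bar) of the log2 fold changes of annotated gene classes with TMM (red) and total counts (blue), for classes with at least 50 genes tested, with the number tested in brackets. Protein-coding genes have the highest median of the classes with both scalings, and TEC, T cell receptor J segment and snRNA genes lie lowest with TMM. Genes with few counts can enter a class through the group where they are high.

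Structural small RNAs went both ways with TMM. Rn7sk, which holds back transcription elongation, had 1691 to 4741 CPM (median 4421) in vehicle mice and 425 to 1065 CPM (median 818) in treated mice, a log2 fold change of -2.27 ± 0.29 with TMM and -3.86 with total counts. Rmrp, the RNA of RNase MRP, fell by 2.15 with TMM, while Rpph1, the RNA of RNase P, had -0.32 with TMM and fell by 1.93 with total counts. The 4 structural RNAs higher with TMM were the Y RNAs Rny1 and Rny3 and the signal recognition particle RNAs Rn7s1 and Rn7s2, and none was higher and 4 were lower with total counts. Animal 30 had the lowest summed share of this list among the vehicle mice, 0.419% against 1.16% to 1.52% in the other 5, and without it the list still held 4 higher and 2 lower with TMM, with a median of 0.29 in place of 0.49.

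Of 70 small nucleolar and Cajal body RNAs tested 37 were lower and 3 higher with TMM (1 higher without animal 26, 30, 45 or 47), and 61 were lower and none higher with total counts. The TMM shares were 52.9% and 4.29%, against 30.5% and 17.3% of all genes, and with total counts 65.5% of all genes were lower. Most held few counts, and such genes can enter the test through the group where they are high. With the filterByExpr filter 16 were tested, of which 9 were lower and 2 higher. Snord17 went from 9.26 to 32.8 CPM (median 25.1) in vehicle mice to 0.655 to 6.87 CPM (median 1.80) in treated mice and Scarna10 from 35.0 to 134 CPM (median 109) in vehicle mice to 5.99 to 28.8 CPM (median 18.6) in treated mice, with log2 fold changes of -3.30 and -2.44. Scarna2 fell by 1.81 with TMM, and Scarna13 had 1.03 with TMM and -0.55 with total counts and lost its call when any of 5 single mice was left out. Mir142hg, the host of a miRNA of blood cells, fell from 11.0 to 20.4 CPM (median 14.6) in vehicle mice to 0.281 to 3.83 CPM (median 1.70) in treated mice. Of 20 long noncoding RNAs that stay in the nucleus or host snoRNAs, 9 were lower (45%, against 30.5% of all genes) and none higher with TMM. With total counts 16 were lower, when 65.5% of all genes were. Kcnq1ot1, the imprinted antisense RNA, fell by 1.25, whereas Malat1 and Tug1 had -0.70 and -0.19 with TMM and fell by 2.25 and 1.71 with total counts.

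The receptors of the drug held few counts. Esr1, oestrogen receptor alpha, had 1.55 to 2.74 CPM (median 2.39) in vehicle mice and 0.749 to 1.85 CPM (median 1.02) in treated mice (log2 fold change -0.99 ± 0.27 with TMM, just inside the fold limit). It was called when animal 25, 26, 27 or 43 was left out. Esr2, oestrogen receptor beta, had 0 to 0.0469 CPM (median 0.0213) and 0 to 0.327 CPM (median 0.106), and although its log2 fold change of 2.40 ± 0.95 passed the test (adjusted p = 0.038), the groups overlapped and the call was lost without any of 7 single mice. Of 18 oestrogen receptor and coregulator genes, 4 were higher with TMM (Carm1, Ncoa1, Esr2 and Pgr, the last at under 1 CPM) and 3 lower, including Ppargc1b and Igfbp4. The share higher was 22.2%, near the 17.3% of all genes, and the share lower was 16.7%, below the 30.5% of all genes. The lower ones numbered 6 without animal 43 and 5 without animal 25 or 26. With total counts 1 (Pgr) was higher and 11 were lower, when 65.5% of all genes were lower.

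Antioxidant genes were higher with TMM. Of 25 NRF2 and antioxidant genes 16 were higher and none lower with TMM (64.0%, against 17.3% of all genes), and 2 were higher and 7 lower with total counts. Srxn1, which repairs oxidised peroxiredoxins, went from 22.1 to 44.3 CPM (median 28.1) in vehicle mice to 224 to 335 CPM (median 313) in treated mice and rose with both scalings, by 3.31 ± 0.18 and 1.77 ± 0.17. Gpx1, Prdx2 and Cat, which red cells hold in large amounts, rose by 1.26, 2.13 and 1.28 with TMM and had -0.28, 0.58 and -0.21 with total counts. Nfe2l2, which encodes NRF2, had 0.58 with TMM and -0.96 with total counts, and its repressor Keap1 had -0.44 and -1.90. For the aryl hydrocarbon receptor, to which flavonoids bind, 1 of 7 genes tested was higher and 1 (Tiparp) lower with TMM, none was higher and 5 were lower with total counts, and Ahr had -0.61 with TMM. Both TMM shares were 14.3%, below those of all genes, and with total counts 65.5% of all genes were lower.

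Calls in the stress, timing and survival lists depended on the scaling. The background with TMM was 17.3% of all genes higher and 30.5% lower. With total counts the lower ones were 11 of 18 p53 targets, 6 of 12 heat shock, 18 of 20 immediate early, 15 of 15 circadian and 7 of 14 BCL2 family genes, against 65.5% of all genes, and of these lists only Phlda3 was higher. Of 18 p53 targets 3 were higher (Bbc3, Eda2r and Phlda3) and 2 lower (Gdf15 and Aen) with TMM, and none of 10 glucocorticoid-responsive genes was a DEG with TMM while 9 were lower with total counts. Heat shock genes numbered 2 higher (Hspb1 and Bag3) and 1 lower (Hsf1) of 12, and immediate early genes 1 higher (Jund, 1.70) and 3 lower (Egr2, Myc and Fosb) of 20 with TMM, with 5 lower without animal 25 or 44. Klf2, a factor of resting lymphocytes, had -0.90 with TMM (called without animal 46) and fell by 2.38 with total counts. Circadian genes were lower in 5 of 15 (Ciart, Cry1, Cry2, Arntl and Nr1d1) with TMM (33.3%, near the 30.5% of all genes), with 9 lower without animal 43 and 3 without animal 29 or 47. Clock had -0.92 with TMM and was called without animal 43 or 48. In the BCL2 family 4 of 14 were higher with TMM (Bid, Bbc3, Bcl2l1 and Bnip3l) and 2 lower (Bcl2 and Bmf). Bnip3l, the receptor for clearance of mitochondria in reticulocytes, rose by 1.76, and Bcl2l1, the survival factor of red cells and platelets, by 1.70, and Mcl1, the survival factor of leukocytes, had -0.44.

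Genes of liver and fat were near 0 in most mice and high in a few. Alb, albumin, had 0 to 703 CPM (median 0.422) in vehicle mice and 0 to 415 CPM (median 0.0440) in treated mice, with the highest values in animals 29 and 43. None of 18 hepatocyte genes was a DEG with TMM and 1 was lower with total counts, and without animal 29 13 of 18 were higher with TMM. Complement C3 had 13.8 to 105 CPM (median 21.6) and 6.09 to 66.3 CPM (median 15.3), and Egfr 0.0616 to 18.3 CPM (median 0.395) and 0.0880 to 14.4 CPM (median 0.186), with the same 2 mice on top, so the fold changes of these genes (-0.67, -0.53 and -0.21) rest on single mice, and without animal 29 they were 4.88, 0.22 and 3.22. Tgfa (-2.31) and S100b (0.33) were at about 1 CPM or less in every mouse and were no DEGs with TMM, but Tgfa was called lower without animal 26, 30 or 46, with DESeq2 and with total counts. Lep was the 1 of 8 adipocyte genes called higher, with TMM and with total counts, at 0 to 0.0876 CPM (median 0) and 0 to 0.975 CPM (median 0.199), with overlap. Of 37 collagen chain genes 4 were higher (10.8%) and 9 lower (24.3%) with TMM, both shares below those of all genes, and with total counts none was higher and 16 were lower. Of 18 genes that the study discusses in mice none was higher and 4 were lower with TMM (Fgfr1, Tlr5, Tlr6 and Tlr8), a list the study chose on these samples in part. Without animal 29, 3 were higher and 3 lower and the median went from -0.78 to 0.23, without animal 43 it was -2.07 and 6 were lower, and without animal 47 2 were lower. With total counts none was higher and 9 were lower.

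The genes with the largest changes under the naming rule were 10 in each direction, drawn from 1306 genes that were DEGs in the same direction with both scalings, reached 10 CPM in a group and did not overlap. Besides 4 platelet genes already given, the 10 that rose included Apcdd1, an inhibitor of Wnt signalling, with a log2 fold change of 3.58. It had 3.53 to 8.06 CPM (median 4.28) in vehicle mice and 42.5 to 77.9 CPM (median 66.1) in treated mice. They also included Ptprn, a phosphatase-like protein of secretory granules (3.52), Tpm2, a tropomyosin (3.46), Maged2 (3.44) and F11r, a junctional adhesion molecule that platelets carry (3.43). The 10 that fell included Prr33, annotated as lincRNA, which had 7.64 to 11.6 CPM (median 10.8) in vehicle mice and 0.0936 to 3.27 CPM (median 0.466) in treated mice (log2 fold change -3.38). Others were BE692007 (-2.90), Crybg2 (-2.80), Zfhx2 (-2.79), the collagen gene Col6a4 (-2.67) and Cklf, a chemokine-like factor (-2.55). Among predicted names the largest falls were at the TEC loci Gm42870 (-3.71) and A130071D04Rik (-3.51), and Gm42870 had 25.0 to 37.4 CPM (median 29.9) in vehicle mice and 0.562 to 4.66 CPM (median 1.84) in treated mice. Snord17 and Mir142hg, described above, Zfp169 and Mypopos belong to the same 10 that fell, Mras to the 10 that rose, and Prr33 and Mir142hg are annotated as noncoding.

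Raising the dose from 100 to 200 mg/kg on Day 1 gave no DEG. None of 19942 genes passed (0%) with edgeR and TMM, with total counts, with stricter filtering or with DESeq2, and 725 genes had an unadjusted p under 0.05 with edgeR (582 with DESeq2). The log2 difference between the doses was 0.20 ± 0.18 for Gp1bb, 0.30 ± 0.37 for Alas2, 0.09 ± 0.36 for Cd3e and 0.44 ± 0.59 for Gm26917 (SE). Within 2 SE these differences span -0.17 to 0.57, -0.45 to 1.05, -0.64 to 0.81 and -0.74 to 1.62, so equal action of the doses was not shown. The 2 doses share no mice, and both were compared with the same vehicle mice. Gp1bb had 37.1 to 77.8 CPM (median 51.0) in vehicle mice, 57.5 to 131 CPM (median 99.3) at 50 mg/kg, 418 to 955 CPM (median 477) at 100 mg/kg and 429.8 to 759 CPM (median 659) at 200 mg/kg, when all 36 mice were scaled together. At 50 mg/kg the range overlapped that of vehicle, and at 100 mg/kg it overlapped that of 200 mg/kg. Cd3e had 79.8 to 95.2 CPM (median 88.8), 67.4 to 114 CPM (median 79.5), 12.4 to 36.2 CPM (median 21.0) and 7.57 to 37.9 CPM (median 25.7) in the same order, with the same split between 50 and 100 mg/kg.

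The response at 200 mg/kg differed between the days. On Day 0 none of 23795 genes was a DEG between 200 mg/kg and vehicle with edgeR (2146 at an unadjusted p under 0.05). In the test of the difference itself, over 24 mice, the Day 1 effect was higher than the Day 0 effect for 3372 of 25702 genes (13.1%) and lower for 6065 (23.6%) with TMM, and for 616 and 13491 with total counts. With TMM, the genes with a higher Day 1 effect included all 23 platelet genes and 10 of 12 haem synthesis genes. Those with a lower Day 1 effect, also with TMM, included 17 of 20 B cell genes, 21 of 23 T cell genes and 11 of 12 MHC class II genes. For this test the lists were not counted with total counts.

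For Gp1bb the log2 effect was 0.55 ± 0.24 on Day 0 (adjusted p = 0.55), and the Day 1 effect exceeded it by 3.04 ± 0.32 (adjusted p = 1.9e-07). For Ppbp the excess was 2.41 ± 0.39, for Alas2 1.94 ± 0.72 and for Rsad2 1.76 ± 0.42. Hbb-bs (1.70 ± 0.96, adjusted p = 0.15) and Lyz2 (0.48 ± 0.22) did not pass. Cd3e and Ighm had Day 0 effects of -0.08 ± 0.19 and -0.20 ± 0.14, and the Day 1 effect lay below these, with differences of -1.83 ± 0.37 and -1.17 ± 0.28 (adjusted p = 3.1e-04 and 0.0013). Gm26917 had 31339.9 to 61639 CPM (median 49565) in Day 0 vehicle mice and 31338 to 57472 CPM (median 42631) at 200 mg/kg on Day 0, which overlapped, against 1261 to 21142 CPM (median 3199) on Day 1. Its difference between the days was -2.64 ± 0.77 (adjusted p = 0.0064), and that of Gm42418 was 2.26 ± 0.62 (adjusted p = 0.0044). Each day had its own vehicle mice, so the vehicle level enters these differences.

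**Figure D5:**
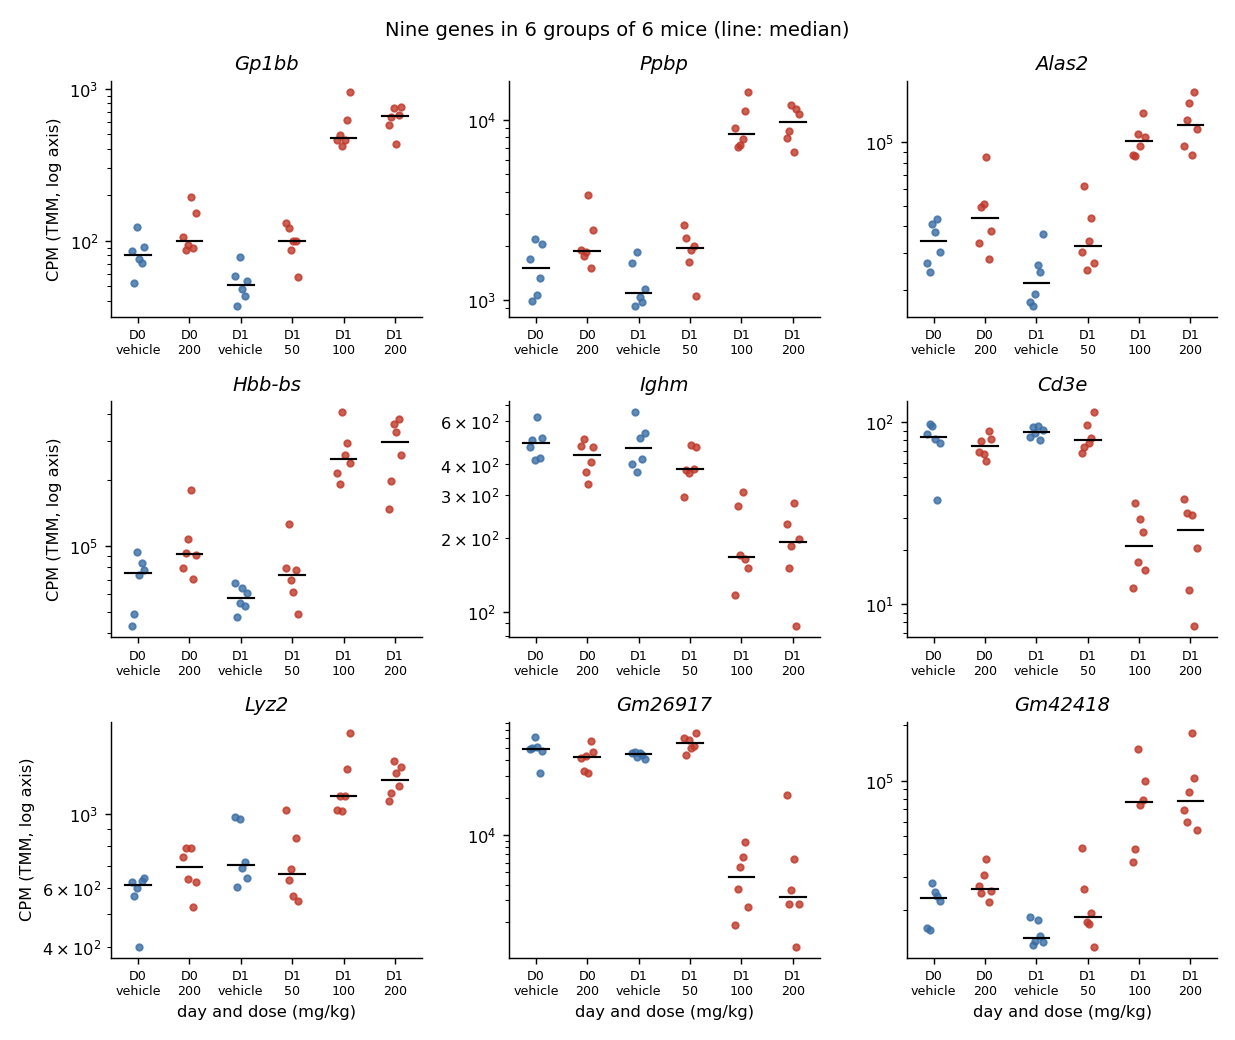
CPM (TMM over 36 mice, log axis) of 9 genes in the 6 groups used here, with each point a mouse, each line a median, blue for vehicle and red for BIO 300. The 100 and 200 mg/kg groups of Day 1 overlap each other and lie apart from the other 4 groups for Gp1bb, Ppbp, Alas2 and Gm26917, and both Day 0 groups overlap for all 9 genes.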

How the data were processed

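Whole blood RNA of 12 mice (6 per group) was analysed, with 24 further mice for comparison. Per the labels, reads were trimmed with Trimmomatic 0.36, aligned with STAR 2.5.2b to GRCm38 and counted with Subread 1.5.2. The deposited values are raw counts per gene that the authors made from these reads, for 49315 genes, and 345 of these had no symbol in GENCODE M21. The annotation release and the strand setting are not given in the sources used here. The authors' own comparison columns (fold changes, p-values, scaled counts) were not used.

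Counts were tested with edgeR 4.0.16 (quasi-likelihood, R 4.3.3) after TMM or total-count scaling, for genes with at least 10 counts in all, with Benjamini-Hochberg adjustment. DEGs had an adjusted p under 0.05 and a log2 fold change beyond 1 in size. DESeq2 1.42.0, other filters and scalings and leaving out each mouse were alternatives. The labels number separate animals, so replicates are mice. Tested on simulated data for this comparison (22983 genes), edgeR recovered 85% of 4-fold and 70% of 2.5-fold changes among 200 changed genes, with 13 false calls. The changed genes were drawn only from well-counted genes, so recovery among genes with few counts was not measured. In that simulation as many genes rose as fell and the rest did not shift. It therefore cannot measure false calls where most genes shift with the scaling, as in these data. Depth was 18332440 to 38337851 counts per mouse, and arms of 6 mice set the precision of each value.

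Named genes were the 10 largest and 10 smallest changes among DEGs with both scalings that reached a mean of 10 CPM in a group without overlap (5 and 5 for predicted names), the 3 members of each list with the highest mean CPM, the extreme members of lists whose median lay over 1 from that of all genes, and the drug receptors and genes the study discusses. Of these, a selection is printed, and a few are not reported here. Members named outside this rule, as parts of counts of 5 or fewer or as single examples, were chosen after their values were seen. The members, lists and tests were chosen with earlier results of these data known. Sequences came from the GENCODE M21 transcripts.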

Additional observations from a re-analysis of the deposited data

Results flagged for a closer look

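The effect of 200 mg/kg differed between the days in a direct test over 24 mice (edgeR, TMM). It was higher on Day 1 for 3372 genes and lower for 6065. The log2 difference between the days was 3.04 for Gp1bb, 2.41 for Ppbp, 1.94 for Alas2, 1.76 for Rsad2 and 2.26 for Gm42418. It was -1.83 for Cd3e, -1.17 for Ighm and -2.64 for Gm26917.

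Single mice stood apart from the other 5 of their group by a gap test on 344 values (128 genes and 44 lists in 2 groups), which marked 41 values where chance marks about 1 in 20. Of the 41, 15 were in animal 43, 7 in animal 29 and 5 in animal 30. Vehicle animal 25 had the highest CPM, apart from the other 5, for Hba-a1 (1353 CPM), Ccl5 (40.0 CPM), Mx1 (6.28 CPM) and Tug1 (111 CPM). Vehicle animal 26 had the highest CPM, apart from the other 5, for Igkc (583 CPM). It had the highest share of counts for the immunoglobulin variable segments list (0.0832%). Vehicle animal 26 had the lowest CPM, apart from the other 5, for Fth1 (928 CPM). Vehicle animal 27 had the highest CPM, apart from the other 5, for Maged2 (19.2 CPM) and Cyp2b10 (3.90 CPM). Vehicle animal 28 had the lowest CPM, apart from the other 5, for Prr33 (7.64 CPM). Vehicle animal 29 had the highest CPM, apart from the other 5, for Alb (703 CPM), C3 (105 CPM), Egfr (18.3 CPM) and Tgfa (1.07 CPM). It had the highest share of counts for the hepatocyte list (0.342%), genes the study discusses in mice list (0.0627%) and collagen alpha chains list (0.00896%). Vehicle animal 30 had the highest CPM, apart from the other 5, for Slc25a37 (12617 CPM), Mcl1 (253 CPM) and Jund (243 CPM). It had the lowest share of counts for the small nucleolar and Cajal body RNAs list (0.0151%) and structural small RNAs list (0.419%). Treated animal 43 had the highest CPM, apart from the other 5, for Gm26917 (19562 CPM), Hbb-bh1 (3.07 CPM), Esr1 (1.85 CPM), Prr33 (3.27 CPM), Alb (415 CPM), C3 (66.3 CPM), S100b (0.592 CPM) and Egfr (14.4 CPM). It had the highest share of counts for the nuclear and snoRNA-host long noncoding RNAs list (0.149%), hepatocyte list (0.109%), genes the study discusses in mice list (0.0149%) and collagen alpha chains list (0.00234%). Treated animal 43 had the lowest CPM, apart from the other 5, for B2m (1245 CPM), mt-Co1 (5442 CPM) and Nfe2l2 (26.1 CPM). Treated animal 46 had the highest CPM, apart from the other 5, for Gm42418 (177724 CPM), Gm25732 (189 CPM) and Hba-a1 (17281 CPM). It had the highest share of counts for the ribosomal RNA repeat loci list (11.8%).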

How the results depend on the processing

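No paired analysis was possible because the groups share no animal numbers. The scaling changed most. With total counts 712 genes were higher and 15405 lower, and with total counts that leave out haemoglobin and ribosomal RNA repeat genes 756 and 15249. The filterByExpr filter left 4116 lower, against 7168 with the main filter, and 3512 higher, against 4073. It thus removed mainly lower calls, and the balance of directions depends on the filter too. For the effect on Day 1 against Day 0, total counts gave 616 higher and 13491 lower. Without any single mouse there were 10380 to 11845 DEGs, of which 3747 to 4463 were higher and 6472 to 7686 lower. The 200 against 100 mg/kg comparison kept 0 DEGs with each alternative run. DESeq2, its size factors, no filter and a limit on adjusted p alone stayed within 1.5 times the other counts.

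Of the 100 genes named with values that were DEGs with TMM, 63 held their call with total counts, 29 lost it and 8 changed sign, and 100 held it with DESeq2. Signs that turned, called or not, are given as the log2 fold change with total counts and then with total counts that leave out haemoglobin and ribosomal RNA repeat genes: Slc25a37 (-0.040), Uros (-0.34, -0.30), Epb41 (-0.35, -0.31), Fli1 (-0.31, -0.27), Lmo2 (-0.16, -0.13), Ralgps2 (-0.69, -0.65), Lat (-0.91, -0.89), Gzma (-0.79, -0.71), Ccl5 (-0.41, -0.34), S100a9 (-0.61, -0.55), S100a8 (-0.59, -0.54), Lyz2 (-0.84, -0.80), H2-D1 (-1.43, -1.38), H2-K1 (-1.39, -1.34), Pcna (-1.31, -1.28), Scarna13 (-0.55, -0.50), Nfe2l2 (-0.96, -0.92), Gpx1 (-0.28, -0.25), Cat (-0.21, -0.18), S100b (-0.95, -0.94). These turns follow from the shift of all genes by -1.47. Leaving out 1 mouse turned H2-D1 (range -0.011 to 0.18, below 0 without animal 44 or 46), Alb (-4.30 to 4.88, the top without animal 29), C3 (-1.19 to 0.22, the top without animal 29), S100b (-2.65 without animal 43 to 0.71) and Egfr (-3.16 to 3.22, the top without animal 29, and above 0 also without animal 44, 46, 47 or 48), and the cause beyond that mouse was not tested. Of genes called with TMM, Epb41, Esr2, Hbb-bs, Lck and Scarna13 lost their call without some single mouse, Hbb-bs without animal 47. Depth was at least 18332440 counts in all 12 mice, which limits mainly genes under 1 CPM.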

Other observations

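Cyp2b10, a cytochrome P450 best known as a drug-induced enzyme of the liver, had 2.20 to 3.90 CPM (median 2.41) in the vehicle mice and 17.3 to 38.0 CPM (median 28.5) in the treated mice. Its log2 fold change was 3.35 ± 0.22 with TMM (edgeR, adjusted p = 2.2e-08) and 1.78 with total counts, and the groups did not overlap. It was chosen after its values were seen. The 2 mice with the highest levels of hepatocyte genes, animals 29 and 43, had 0.342% and 0.109% of their counts on those 18 genes, and the other 10 mice had at most 0.0151%.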
